A study of Mus musculus with 10 samples.

Results

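The sarcomere, the repeating contractile unit of a muscle fiber, is built on a scaffold of structural proteins, and 39 genes that encode this scaffold are described here. They comprise 12 genes of the thin filament, 19 genes of the Z-disc and 8 genes of titin, the M-band and the thick filament backbone. They were chosen by function and found by their symbol in the annotation of the array, and all 39 were measured, among 19938 genes in all. Each was sorted by compartment and, where this is well established, by the fiber type that uses it, which gave 6 fast forms, 4 slow forms and 29 genes with no such preference or none assigned.

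RNA levels were read with Affymetrix Mouse Gene 1.0 ST arrays from C56BL6N mice (the strain as the labels spell it) labelled 8 weeks old. In the fast-contracting tibialis anterior (TA) at the front of the shin, 10 µg of a GFP plasmid was introduced by electroporation, and GFP-positive fibers were dissected 2 weeks later. On 2 arrays the plasmid encoded an shRNA against linc-MYH (shlinc-MYH), a long non-coding RNA of the fast myosin heavy chain locus, and on the other 2 it was the control vector. In the methods this is an shRNA against LacZ placed in the TA of the other leg. In the gastrocnemius, 3 arrays held cSix1 KO muscle and 3 held wild type muscle. The cSix1 KO mice carried a conditional deletion made with HSA-CRE, in which the human skeletal actin promoter drives the recombinase. This promoter acts in muscle fibers, so that other cells of the muscle are not deleted. Every TA sample, controls included, had been electroporated, and no gastrocnemius sample had. The dissected TA fibers and the whole gastrocnemius were thus different kinds of sample.

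Thin filaments are made of actin with tropomyosin strands along them, and they are anchored in the Z-disc by alpha-actinin. Titin spans from the Z-disc to the M-band, where myomesins link the thick filaments, and myosin binding protein C decorates those filaments. Several of these proteins exist as forms of separate genes that are used by fast fibers, which contract quickly and tire early, or by slow fibers, and tropomyosin, myozenin, myomesin and myosin binding protein C each have a fast and a slow form, while alpha-actinin has a form of fast fibers and one of all fibers.

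All values below are log2 signals, normalized by the authors, and differences are log2 fold changes (treated or mutant minus control, on which 1 is a doubling) with their standard error (SE). Each comparison was tested over all 19938 genes with limma and Benjamini-Hochberg adjustment, with an adjusted p under 0.05 as the threshold. Because the arrays of the 2 tissues had different distributions (array medians of 5.09 to 5.14 in TA and 6.60 to 6.67 in gastrocnemius), no level was compared between them. The methods say that electroporated muscles of a condition came from different mice, without tying mice to arrays, and neither they nor the labels say whether the gastrocnemius arrays came from separate animals, so p-values measure the spread between these samples, which may be technical. linc-MYH was not analysed here, and neither the deletion nor the knockdown was checked on the arrays. In muscle RNA, fewer fibers of a type and less RNA per fiber cannot be told apart. The fast fiber markers, such as Myh4 (11.85 to 12.46 in TA, 13.49 to 13.69 in gastrocnemius), were all far above the array medians. Most of the structural genes were bright too, with 26 of 39 in TA and 32 of 39 in gastrocnemius at or above percentile 95 of all genes in the control arrays. Array signals of the very brightest genes can flatten and understate differences, which was not tested here. Tpm3, which differed by 1.03 in gastrocnemius, was at percentile 98.6 in the controls there, with a mean of 11.83. The control means of Actn3 (13.75), Tpm1 (13.60) and Mybpc2 (13.43) lay higher, and the value of Tpm3 cannot show whether such genes flatten.

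The sequences at the annotated transcription starts of the 4 slow forms are shown first, from RefSeq on build GRCm38.p6. Each runs from 250 bases before the start to 50 bases after it on the strand of the gene. Capitals mark matches to a MEF2 motif or to the MEF3 consensus GAAACCTGA, a sequence of muscle gene promoters. Of Tpm3, which has a pair of windows, the first is shown.
Tpm3 (slow alpha-tropomyosin), chr3:90072401-90072700, plus strand: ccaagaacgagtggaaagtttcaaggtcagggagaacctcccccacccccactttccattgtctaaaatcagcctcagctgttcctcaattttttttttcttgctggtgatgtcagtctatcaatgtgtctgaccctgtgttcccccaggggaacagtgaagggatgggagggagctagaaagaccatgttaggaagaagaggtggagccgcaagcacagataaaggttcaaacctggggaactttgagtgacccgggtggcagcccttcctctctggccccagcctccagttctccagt
Myoz2 (myozenin 2), chr3:123034938-123035237, minus strand: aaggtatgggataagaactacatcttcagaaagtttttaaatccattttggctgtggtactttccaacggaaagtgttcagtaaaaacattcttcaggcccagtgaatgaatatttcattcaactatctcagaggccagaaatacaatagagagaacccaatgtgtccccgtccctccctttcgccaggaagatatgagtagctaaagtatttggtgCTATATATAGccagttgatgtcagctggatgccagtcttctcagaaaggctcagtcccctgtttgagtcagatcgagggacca
Myom3 (myomesin 3), chr4:135759465-135759764, plus strand: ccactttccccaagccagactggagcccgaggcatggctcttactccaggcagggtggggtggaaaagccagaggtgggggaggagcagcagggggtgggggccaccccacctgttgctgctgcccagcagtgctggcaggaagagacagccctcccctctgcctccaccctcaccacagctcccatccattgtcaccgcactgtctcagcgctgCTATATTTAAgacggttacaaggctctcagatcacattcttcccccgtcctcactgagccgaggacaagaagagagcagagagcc
Mybpc1 (slow myosin binding protein C), chr10:88605103-88605402, minus strand: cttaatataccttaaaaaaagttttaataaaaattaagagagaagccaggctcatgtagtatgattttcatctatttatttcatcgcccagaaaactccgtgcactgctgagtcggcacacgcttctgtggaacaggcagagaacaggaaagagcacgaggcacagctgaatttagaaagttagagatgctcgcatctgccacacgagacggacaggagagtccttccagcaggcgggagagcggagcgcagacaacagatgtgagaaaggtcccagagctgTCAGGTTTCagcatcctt

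Myoz2 held a MEF2 match, CTATATATAG, at position -33 from the start, and Myom3 held one, CTATATTTAA, at position -35. Neither overlapped a match to another motif searched, but a TATA sequence was searched only as the exact letters TATAAA. Whether these matches serve as MEF2 sites or as TATA sequences was not tested. Neither window of Tpm3 held a MEF2 or MEF3 match. Mybpc1 held the MEF3 consensus at position 33 on the strand opposite to the gene, where the printed strand reads TCAGGTTTC. Windows were available for 30 of the 39 genes, 38 windows in all. The MEF3 consensus was in 1 of these 38 (2.63%) and in 0.429% of all 32851 windows, the MEF2 motif was in 7 (18.4% against 3.19% of all) and the CArG motif, which serum response factor binds, in 6 (15.8% against 1.63%). The E-box CANNTG, bound by MyoD and its relatives, was in 29 windows (76.3% against 72.3%), the MCAT sequence CATTCC in 10 (26.3% against 14.7%) and TATAAA in 5 (13.2% against 13.6%). Both strands were searched. These matches describe letters in short windows, and binding was not measured on the arrays.

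In cSix1 KO gastrocnemius, slow tropomyosin Tpm3 and the PDZ-LIM protein gene Pdlim1 rose, the titin cap gene Tcap fell, and the other 36 genes did not pass the test. All 4 slow forms lay above their control mean, with log2 fold changes of 0.26 to 1.03, and all 6 fast forms lay below it, by -0.25 to -0.13. Of all genes, 0.908% were called higher and 0.833% lower, against 2 and 1 of these 39. Without adjustment, p was under 0.05 for 7 genes higher and 9 lower, where 8.44% and 6.5% of all genes were. On 16 of the 39 genes (41.0%) all cSix1 KO arrays were below all control arrays, against 9.85% of all genes, and on 6 (15.4%) they were all above, against 11.0%. The median log2 fold change was -0.06 over the 39 genes and 0.01 over all genes.

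**Figure D1:**
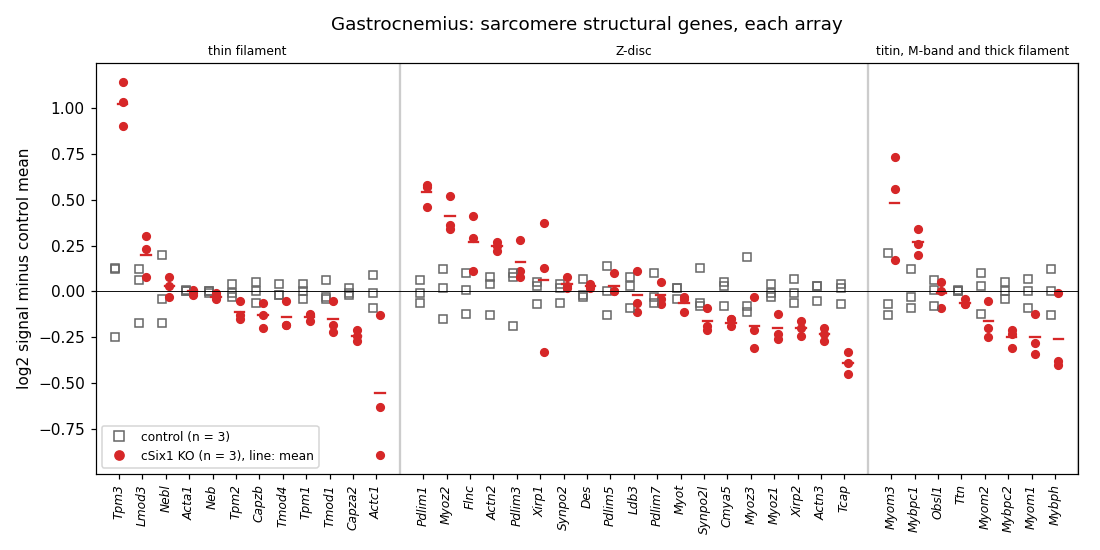
Log2 signal of each gastrocnemius array minus the mean of the 3 control arrays (vertical axis) for the 39 genes, sorted within each compartment (open squares, control; red circles, cSix1 KO; red line, cSix1 KO mean). Tpm3, Pdlim1 and Tcap, which passed the test, had no overlap between groups, and Actc1 spread over the 3 cSix1 KO arrays.

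In the thin filament, Tpm3, the tropomyosin of slow fibers, stood at 11.95, 11.58 and 11.96 on the control arrays and at 12.86, 12.97 and 12.73 on the cSix1 KO arrays. The lowest mutant array lay well above the highest control. The increase was 2.04-fold (log2 fold change 1.03, SE 0.12, 3 arrays against 3, limma adjusted p = 0.00892). Tpm3 also encodes short non-muscle tropomyosins, and the array had 4 probe sets for the gene. They gave log2 fold changes of 1.03, 0.75, 0.60 and 0.44, and each passed in a fit over all probe sets, with limma adjusted p between 0.00607 and 0.019. The brightest listed 1 RefSeq transcript and the second 6, and probes that related tropomyosin genes share cannot be told apart here. Tpm4, a non-muscle tropomyosin, had a log2 fold change of 0.40 and an adjusted p of 0.0516.

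Tpm1, the tropomyosin of fast fibers, read 13.56, 13.60 and 13.64 in controls and 13.44, 13.48 and 13.47 in cSix1 KO muscle. The mutant arrays were all slightly lower, and the difference of -0.13 (SE 0.06) did not pass (adjusted p = 0.365, limma). Cardiac alpha-actin Actc1, which developing skeletal muscle also uses, read 13.24, 13.16 and 13.34 in controls against 12.36, 12.62 and 13.12. All mutant arrays were below all controls, replicate 3 only just, and the log2 fold change of -0.55 (SE 0.17) did not pass (adjusted p = 0.19, limma). Leaving out cSix1 KO replicate 3 gave -0.76 with an adjusted p of 0.0156. Skeletal alpha-actin Acta1, the main actin of adult fibers, stayed within 14.01 to 14.04 on all 6 arrays, with a difference of -0.01 (95% interval -0.14 to 0.13). It was the brightest end of the range (percentile 100 of all genes), and the coding sequences of both actins are so alike that shared probes are possible. Of the 12 thin filament genes, 7 had all mutant arrays below all controls (58.3%, against 9.85% of all genes), among them Tpm2, Tmod1, Tmod4 and Capza2, a subunit of the barbed-end capping protein, whose log2 fold change was -0.24.

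At the Z-disc, Pdlim1, whose product binds alpha-actinin, read 10.29, 10.17 and 10.22 in controls and 10.69, 10.80 and 10.81 in cSix1 KO muscle. The groups were clearly apart, and the rise was 1.45-fold (log2 fold change 0.54, SE 0.07, limma adjusted p = 0.0136). Its second probe set gave 0.61 (adjusted p = 0.0286). Tcap, telethonin, which ties titin ends together at the Z-disc, fell from 11.96, 11.94 and 11.85 to 11.53, 11.47 and 11.59. The mutant arrays were all lower, by 1.30-fold on average (log2 fold change -0.38, SE 0.07, limma adjusted p = 0.0389). The Tcap call was lost without any of the 3 control arrays and without cSix1 KO replicate 1 or 2, with adjusted p of 0.0668 to 0.157. The Pdlim1 call was lost without control replicate 2 (0.0677) or cSix1 KO replicate 2 (0.0659), and that of Tpm3 without cSix1 KO replicate 2 (0.0502), with 2 arrays left in 1 group each time. With all 10 arrays in 1 fit Tpm3 had an adjusted p of 0.105, and by the methods' t-test the adjusted p of the 3 genes was 0.125 to 0.163.

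Myoz2, myozenin 2, the calcineurin-binding Z-disc protein of slow fibers and heart, read 11.57, 11.30 and 11.47 in controls and 11.81, 11.97 and 11.79 in cSix1 KO muscle. The groups did not overlap, and the log2 fold change of 0.41 (SE 0.09) was just short of the threshold (adjusted p = 0.0751, limma). Its fast relative Myoz1 read 13.15, 13.17 and 13.22 against 12.92, 12.95 and 13.06. Here the mutant arrays were all lower, by -0.20 (SE 0.07, adjusted p = 0.214, limma). Myoz3, a further myozenin of fast fibers, differed by -0.18 with overlapping groups.

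Alpha-actinin 2 (Actn2), the cross-linker of thin filaments in all fibers, read 12.84, 12.67 and 12.88 in controls and 13.02, 13.07 and 13.05 in cSix1 KO muscle. Its fast-fiber counterpart Actn3 read 13.70, 13.78 and 13.78 against 13.48, 13.52 and 13.55. Thus the mutant arrays were all higher for Actn2, by 0.25 (SE 0.08), and all lower for Actn3, by -0.24 (SE 0.06), and neither passed (adjusted p = 0.17 and 0.125, limma). The muscle filamin Flnc differed by 0.27 with no overlap (11.90, 11.68 and 11.81 against 12.21, 12.09 and 11.91). The intermediate filament desmin (Des) was flat, at 13.01 to 13.11 in controls and 13.06 to 13.08 in cSix1 KO muscle. Xirp1, an actin-binding Xin repeat protein of muscle attachment sites, read 9.58, 9.46 and 9.56 against 9.90, 9.66 and 9.20, with the mutant arrays on both sides of the controls. Pdlim3, a further alpha-actinin partner, read 12.83, 12.56 and 12.85 against 13.03, 12.86 and 12.83, and its groups overlapped.

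Among M-band and thick filament genes, Myom3, the myomesin of slow and intermediate fibers, read 9.00, 8.66 and 8.72 in controls and 9.35, 9.52 and 8.96 in cSix1 KO muscle. Replicate 3 of the mutants lay below the highest control, and the log2 fold change of 0.48 (SE 0.15) did not pass (adjusted p = 0.184, limma). Without that array it was 0.64 (adjusted p = 0.0383). Myom2, the M-protein of fast fibers, read 12.75, 12.53 and 12.68 against 12.40, 12.45 and 12.60, a difference of -0.17 with overlap.

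Slow myosin binding protein C (Mybpc1) read 12.36, 12.21 and 12.15 in controls and 12.58, 12.50 and 12.44 in cSix1 KO muscle. The fast form Mybpc2 read 13.39, 13.43 and 13.48 against 13.12, 13.20 and 13.22. The slow form was higher on all mutant arrays, by 0.26 (SE 0.08), and the fast form lower on all, by -0.25 (SE 0.07), with adjusted p of 0.171 and 0.117 in limma. Myosin binding protein H (Mybph) read 11.01, 11.26 and 11.14 against 10.74, 10.76 and 11.13, and overlapped through replicate 3. Titin itself (Ttn) differed by -0.06, with all mutant arrays below all controls.

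Set side by side by form, the slow genes had a median log2 fold change of 0.45 in cSix1 KO muscle and the fast genes one of -0.19. Lower values were not limited to the fast forms. Of 13 genes assigned to both fiber types 10 lay below 0, with a median of -0.06. The 2 capping protein genes had a median of -0.18, and of 10 unassigned genes 5 lay below 0. Outside the scaffold, all 6 skeletal muscle markers (Ckm, Mb, Myh4, Atp2a1, Ryr1 and Cacna1s) lay below 0 too, with a median of -0.12 and 0 called. For 5 of these 6 markers (83.3%) all cSix1 KO arrays were below all controls, against 9.85% of all genes. Myh4 and Atp2a1 are also among the fast fiber markers. By array, the median of the 4 slow forms above their control mean was 0.46, 0.62 and 0.27 in cSix1 KO replicates 1, 2 and 3, and that of the 6 fast forms was -0.27, -0.22 and -0.12. Replicate 3 was the closest to the controls on both. Other genes of slow fibers moved on the same arrays. Of 8 slow fiber markers from troponin, myosin and calcium-handling genes, 7 rose, where 0.908% of all genes were called higher. The per-array medians of these 8 were 1.05, 1.24 and 0.80. The log2 of their summed signal was 13.70 to 14.00 in controls and 14.75 to 15.03 in cSix1 KO muscle. The 9 fast fiber markers were all uncalled, and their summed signal was 16.62 to 16.67 against 16.48 to 16.55. The part of fiber number in the slow and fast forms' values was not tested.

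Markers of other cells differed too. All 6 macrophage markers were above the controls on every cSix1 KO array, against 11.0% of all genes, and 1 of them (Mrc1) was called. Their summed log2 signal was 11.12 to 11.44 in controls and 11.73 to 12.59 in cSix1 KO muscle. Of all genes, 0.908% were called higher. Of 8 satellite cell and regenerating muscle markers 3 rose (Myog, Mymk and Myh8), with a summed signal of 10.74 to 10.92 against 11.12 to 11.60. By array these markers stood 0.78, 0.73 and 0.23 above the controls, with replicate 3 again the closest. The 6 fibroblast markers had 0 calls and summed to 13.77 to 14.04 against 13.98 to 14.17. Their log2 fold changes ran from 0.01 to 0.64, with a median of 0.40. Without adjustment, limma p was under 0.05 for 5 of the 6, all higher, against 8.44% of all genes, and 2 of the 6 had no overlap. The part of these cells in the values of Tpm3 and Pdlim1, which non-muscle cells also express, was not tested.

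**Figure D2:**
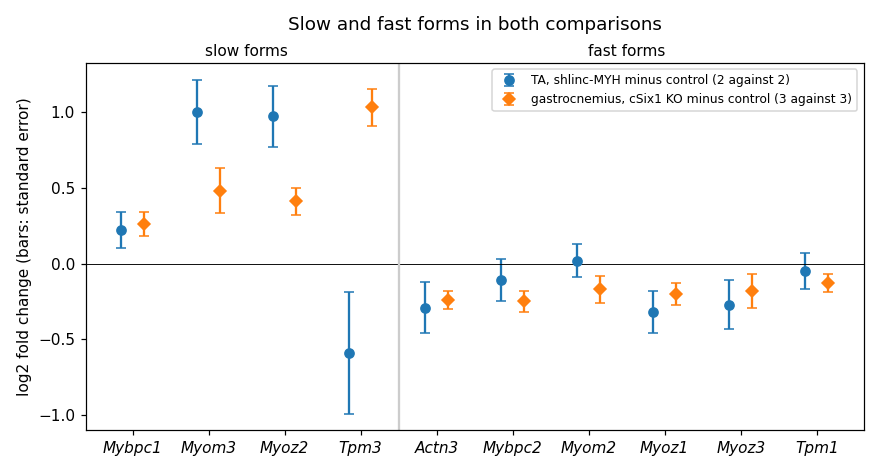
Log2 fold change with its standard error (vertical axis) of the 4 slow and 6 fast forms in TA (blue circles, shlinc-MYH minus control vector, 2 arrays against 2) and gastrocnemius (orange diamonds, cSix1 KO minus control, 3 against 3). Fast forms lay between -0.32 and 0.02 in both, and of the slow forms Tpm3 was the one that lay on opposite sides of 0, at -0.59 and 1.03.

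In TA fibers with shlinc-MYH, the highest values were those of Xirp1, Myom3 and Myoz2, with log2 fold changes of 1.21, 1.00 and 0.97, and none of the 39 genes passed the test with limma. In all, 3 of 19938 genes were called, all higher (0.015%). With 2 arrays per group, 8 of the 39 genes had an unadjusted limma p under 0.05 and a higher signal, against 4.27% of all genes, and 1 (Tcap) had a lower signal, against 4.37%. The methods' t-test with adjustment also called 0 of the 39. Both shlinc-MYH arrays were above both controls on 12 genes (30.8%, against 16.3% of all genes) and below them on 8 (20.5%, against 23.0%). The median log2 fold change was -0.02, and -0.03 over all genes. Since none passed, the values below are descriptions.

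**Figure D3:**
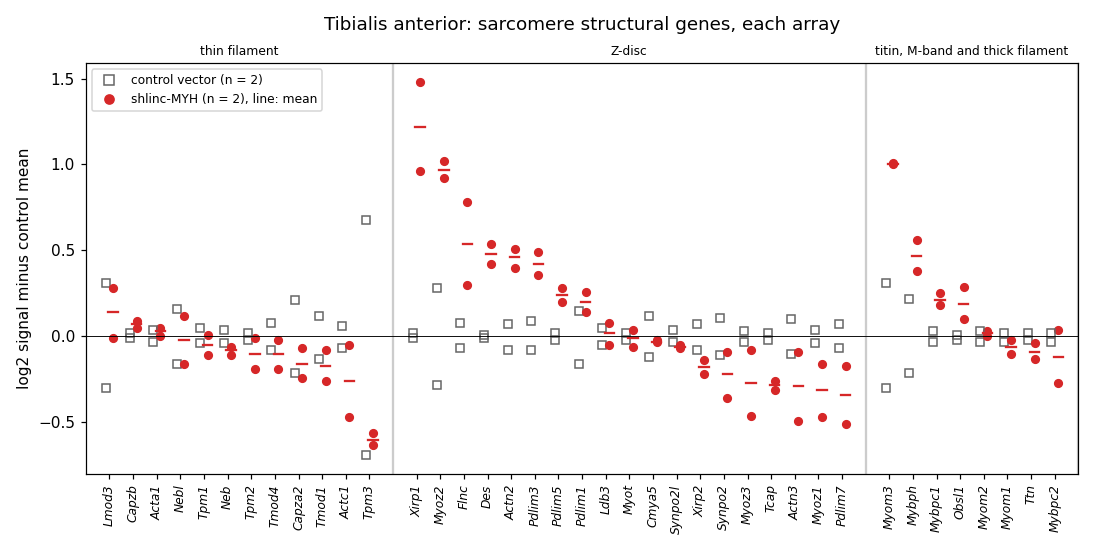
Log2 signal of each TA array minus the mean of the 2 control vector arrays (vertical axis) for the 39 genes, sorted within each compartment (open squares, control vector; red circles, shlinc-MYH; red line, shlinc-MYH mean). Xirp1, Myoz2 and Myom3 lay highest with no overlap, and the 2 control arrays of Tpm3 (9.08 and 7.71) lay on either side of both treated ones.

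The Z-disc held 6 of the 8 genes that were higher at an unadjusted p under 0.05. Xirp1, which is known to increase in damaged or growing fibers, read 6.71 and 6.74 with the control vector and 7.68 and 8.20 with shlinc-MYH. The treated arrays were both far above the controls, by 2.32-fold on average (log2 fold change 1.21, SE 0.19, limma adjusted p = 0.225). Myoz2 read 8.94 and 8.38 against 9.58 and 9.68, again with no overlap (0.97, SE 0.20, limma adjusted p = 0.393). The control arrays of Myoz2 differed from each other by more than the treated ones did.

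Desmin, which links neighbouring Z-discs, read 10.36 and 10.34 with the control vector and 10.89 and 10.77 with shlinc-MYH. Actn2 read 10.81 and 10.66 against 11.14 and 11.25, and Flnc read 7.98 and 8.13 against 8.35 and 8.83. None of these overlapped, and their log2 fold changes were 0.47, 0.46 and 0.54, with limma adjusted p between 0.455 and 0.521. Pdlim3 read 9.99 and 9.82 against 10.26 and 10.39 (log2 fold change 0.42, adjusted p = 0.494), also with no overlap. Pdlim1 read 7.84 and 7.53 against 7.83 and 7.95, so that a treated array lay between the controls, and its difference was 0.20. Tcap was lower, at 10.26 and 10.22 against 9.93 and 9.98 (-0.28, SE 0.11, limma adjusted p = 0.568). The fast forms Actn3 (12.11 and 12.31 against 12.12 and 11.72) and Myoz1 (10.72 and 10.80 against 10.60 and 10.29) were lower by -0.29 and -0.32, mostly through shlinc-MYH replicate 2, and the groups of Actn3 overlapped.

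At the M-band, Myom3 was dim in TA (percentile 64.5 of all genes in controls) and read 6.25 and 5.64 with the control vector against 6.94 and 6.95 with shlinc-MYH. Both treated arrays were above both controls, and the log2 fold change of 1.00 (SE 0.21) did not pass (adjusted p = 0.393, limma). Myom2, its fast counterpart, was level at 9.98 and 10.04 against 10.04 and 10.01. Mybph read 8.72 and 8.29 against 9.06 and 8.88 (log2 fold change 0.47, adjusted p = 0.542). Slow Mybpc1 read 11.10 and 11.04 against 11.32 and 11.25, both higher, by 0.22, and fast Mybpc2 read 11.55 and 11.60 against 11.62 and 11.31, on both sides of the controls. Mybpc1 was bright in control TA, at percentile 99.4 of all genes against 99.8 for Mybpc2, while slow myosin heavy chain Myh7 was at 50.5. Its label as a slow form therefore does not mean that it was confined to slow fibers.

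In the thin filament, 0 of 12 genes had an unadjusted p under 0.05 in TA. Tpm3 read 9.08 and 7.71 with the control vector and 7.77 and 7.84 with shlinc-MYH. The treated arrays lay between the controls, which differed from each other more than 2-fold, so the log2 fold change of -0.59 (SE 0.40, limma adjusted p = 0.733) was set by control replicate 1. Without it the value was 0.09, and without control replicate 2 it was -1.28. The other 3 probe sets of Tpm3 gave -0.08, -0.03 and 0.05. Tpm1 (12.21 and 12.30 against 12.26 and 12.14), Acta1 (12.63 and 12.70 against 12.71 and 12.66) and Actc1 (12.00 and 12.13 against 12.02 and 11.60) all overlapped.

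**Figure D4:**
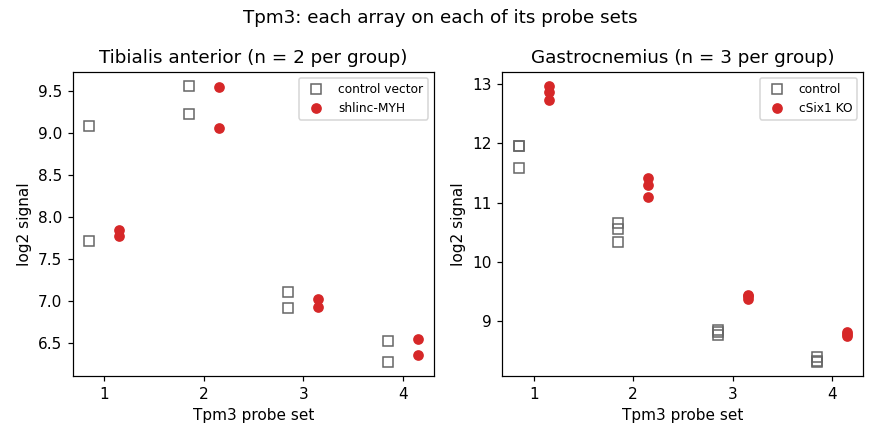
Log2 signal (vertical axis) of Tpm3 on each of its 4 probe sets, numbered by their mean over all 10 arrays, in TA (left, 2 arrays per group) and gastrocnemius (right, 3 per group; each panel has its own scale). In gastrocnemius the cSix1 KO arrays were above the controls on all 4, and in TA the groups overlapped on each, with control replicate 1 apart on the first.

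Control replicate 1 also stood above control replicate 2 on the slow forms as a group in TA, by a median of 0.29 and -0.29 around their mean, and on 8 slow fiber markers, by 0.44 and -0.44. By median, the shlinc-MYH arrays stood 0.58 and 0.59 above that mean on the slow forms and 1.13 and 1.10 on the slow fiber markers, above both controls. Gene by gene, 3 of the 4 slow forms were higher with no overlap, and Tpm3 overlapped. Of all genes, 16.3% were higher in TA with no overlap. Of the 8 markers 5 were higher with no overlap, while Myh7 (-0.33), Myl2 (0.65) and Myl3 (0.0) overlapped. The summed log2 signal of the slow fiber markers was 10.03 to 10.83 in controls and 11.69 to 11.74 with shlinc-MYH, with 0 of 8 called. Of these markers, slow myosin heavy chain Myh7 was at 4.98 to 5.68 on all TA arrays, near the array medians. The 8 satellite cell and regenerating muscle markers had 0 calls and summed to 8.91 to 9.29 in controls and 10.02 to 10.56 with shlinc-MYH. Of these 8, 6 were higher with no overlap, while the satellite cell markers Pax7 (-0.06) and Myf5 (0.03) overlapped. All 6 endothelial markers, against 23.0% of all genes, were below the controls on both shlinc-MYH arrays (10.24 to 10.25 against 9.16 to 9.89, 0 called). The summed log2 signal of the 6 smooth muscle markers was highest on control replicate 1 (9.74, against 8.69 to 9.04 on the other 3 arrays, 0 called). So was that of the 6 macrophage markers (10.45, against 9.34 to 9.91 on the other 3 arrays, 0 called). Singly, the smooth muscle markers Mylk and Smtn and the macrophage marker Adgre1 each read higher on another array. The part of these cells, or of regenerating fibers, in the values of Xirp1, Myom3, Myoz2 and Tpm3 was not tested.

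Between the 2 comparisons, the difference itself was tested in 1 fit over all 10 arrays, and 0 of the 39 genes passed, against 0.145% of all genes. Muscle, kind of sample, electroporation and perturbation all differ between the comparisons and cannot be told apart in these values. At an unadjusted p under 0.05 there were 6 of 39, against 12.3% of all genes. The cSix1 KO value exceeded the shlinc-MYH value for Tpm3, by 1.62 (SE 0.42, adjusted p = 0.187), and for Pdlim1, by 0.34 (adjusted p = 0.388). It was smaller for Xirp1, by -1.16 (SE 0.27, adjusted p = 0.155), Mybph (-0.73), Myoz2 (-0.56) and Des (-0.45), all by limma. Without TA control replicate 2 the difference of Tpm3 was 2.31 and passed (adjusted p = 0.00484), and without TA control replicate 1 it was 0.94. The slow and fast forms other than Tpm3 and Myoz2 differed by -0.51 to 0.11 between the comparisons, none at an unadjusted p under 0.05.

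The 20 genes not given by array ranged from -0.34 (Pdlim7) to 0.24 (Pdlim5) in TA and from -0.24 (Capza2 and Myom1) to 0.20 (Lmod3, an actin nucleator) in gastrocnemius. In gastrocnemius 4 of the 20 had an unadjusted p under 0.05, all lower (Capza2, Cmya5, Xirp2 and the common myomesin Myom1), where 6.5% of all genes were lower and 8.44% higher, and none passed. Nebulin (Neb), the ruler-like protein along the thin filament, differed by -0.08 in TA and -0.02 in gastrocnemius. Nebulette (Nebl), its heart relative, was dim in both muscles, at percentile 24.5 and 36.6 of all genes in the controls. The Z-disc genes Ldb3 (0.01 and -0.03) and Myot (-0.01 and -0.06) and Obsl1 of the M-band (0.20 and -0.01) completed the range, with overlapping groups in gastrocnemius.

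Other sarcomere genes were counted in the same fits. Of 19 troponin and myosin genes, 8 rose and 1 (Mylk2, the skeletal myosin light chain kinase, by -0.68) fell in cSix1 KO gastrocnemius, with a median of 0.64. Of all genes, 0.908% were called higher in cSix1 KO gastrocnemius and 0.833% lower. The largest rises there were those of slow cardiac-type troponin C (Tnnc1, 1.40), slow troponin T (Tnnt1, 1.32) and cardiac troponin T (Tnnt2, 1.32). In TA 0 of the 19 passed, with Tnnt1 at 2.76 and Tnnc1 at 2.46, and with controls that lay far apart for both (8.01 and 6.0 for Tnnt1, 8.06 and 5.74 for Tnnc1). Of 23 measured genes of other sarcomere partners, 1 rose in TA (Ankrd1, a stretch-responsive ankyrin repeat protein of the I-band, 2.73, adjusted p = 0.0165) and 1 fell in gastrocnemius (Unc45b, a myosin chaperone, -0.40, adjusted p = 0.0424), all by limma. Ankrd1 read 8.22 and 8.04 with the control vector and 10.72 and 11.01 with shlinc-MYH. Of 14 non-muscle and smooth muscle relatives of the 39 genes 0 passed in either comparison. Their median was -0.18 in TA and 0.11 in gastrocnemius, and 0 and 3 had an unadjusted p under 0.05.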

How the data were processed

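RNA of 10 mouse muscle samples was hybridized to Mouse Gene 1.0 ST arrays of Affymetrix, in groups taken from the sample labels (TA, 2 control vector and 2 shlinc-MYH; gastrocnemius, 3 control and 3 cSix1 KO). The table the authors deposited held a log2 signal per probe set and array after RMA, with RMA and Partek listed in the processing notes and R named in the methods. Labels and methods also differ on the RNA amount, the kit and the mouse age. Whether both tissues were normalized together is not given in the sources used here.

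Of 35556 probe sets, 21789 had 1 gene symbol, 1621 several and 12146 none. Those with 1 symbol gave 19938 genes. For the 999 genes with several probe sets the brightest on average over the 10 arrays stood for the gene. By Entrez number 21698 probe sets matched RefSeq (GRCm38.p6), and 0 symbols changed.

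Each tissue was fitted on its own with limma 3.58.1 (lmFit, eBayes) in R 4.3.3, with Benjamini-Hochberg adjustment over all genes and a threshold of 0.05. The difference was a contrast over all 10 arrays. Python 3.11.15 with pandas 2.3.3 and matplotlib 3.10.9 made tables and plots. The fit was checked on simulated data. The 39 genes and all lists were chosen with earlier results of these data known. Values of every array were given for genes that passed, or had an unadjusted p under 0.05 and a log2 fold change of at least 0.3 in size, or one of at least 0.5 whatever its p, and for fast and slow counterparts. Other genes were chosen by list, up to 2 per direction.

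Alternatives were quantile normalization, centring on the median, leaving out dimmer genes, the mean of probe sets, a block for the replicate number, weights per array, a fit of all 10 arrays together, a robust prior with an intensity trend, leaving out each array and the methods' t-test. A fit of every probe set was added after seeing the data. Arrays give no read depth, and their number limits the precision. A gene is not reported here.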

Additional observations from a re-analysis of the deposited data

How the results depend on the processing

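For the 39 genes, calls in TA rose from 0 to 3 with all 10 arrays in 1 fit (Des, Myoz2 and Xirp1) and were 0 when any array was left out. In gastrocnemius the 3 calls became 7 with an intensity trend and robust prior, 8 with array weights and 0 with the methods' t-test, and 0 to 5 when an array was left out (0 without cSix1 KO replicate 2, 1 without control replicate 2, 5 without cSix1 KO replicate 3). Calls for the difference were 0 to 1 when an array was left out. Replicate numbers were not stated to pair samples, and same-numbered deviations correlated at 0.185 in TA and at 0.216, -0.137 and 0.084 in gastrocnemius. With the replicate number as a block, 1 of the 39 genes was called in gastrocnemius (Tpm3; adjusted p = 0.0556 for Pdlim1 and 0.114 for Tcap), and all genes called numbered 186 there and 5 in TA, with 2 other sarcomere genes in TA.

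Over all genes, the 3 calls in TA became 10 with centring, 131 with all 10 arrays in 1 fit and 0 with the methods' t-test, and 0 when any array was left out. The 347 calls in gastrocnemius became 543 with an intensity trend, 989 with array weights and 4 with the methods' t-test, and 51 to 560 when an array was left out. The 29 calls of the difference became 16 without dimmer genes and 48 with an intensity trend, and 6 to 100 when an array was left out. Of the other sarcomere genes, 1 was called in TA, 6 with all 10 arrays and 0 with the methods' t-test, and 0 when any array was left out. In gastrocnemius 10 were called, 3 with all 10 arrays, 0 with the methods' t-test and 3 to 13 when an array was left out.

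Of 44 log2 fold changes of single genes, 37 never took the opposite sign, and 1 of these, Acta1 in gastrocnemius, was 0 with quantile normalization. In TA, Tpm3 and 4 smaller values turned when an array was left out: Acta1 ranged from -0.016 to 0.0586, Tpm1 from -0.11 to 0.0049, Tpm3 from -1.28 to 0.0898, Myom2 from -0.0128 to 0.0466 and Mybpc2 from -0.27 to 0.0388. Myom2 was -0.0165 in TA with quantile normalization, and the fourth probe set of Tpm3 gave 0.0477 there. In gastrocnemius Xirp1 ranged from -0.10 to 0.25 when an array was left out, and Des was -0.0223 with centring. The Z-disc median in TA, -0.01, ranged from -0.06 to 0.05. The cause of these changes was not tested, and 2 or 3 arrays per group limit all of them.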
